A study of Mus musculus with 6 samples.

Results

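The entries described here are all rows of a mouse miRNA read table whose names carry a number from miR-6896 to miR-7094, with any arm or suffix. They were chosen by name alone and came to 237 of the 1109 rows. They held 21.4% of the rows but 4961 of 39452836 reads, a share of 0.0126%. They covered 149 of the numbers in the range and 150 hairpin names, 87 of which had both arms listed, with 104 rows for 3p arms and the rest for 5p arms.

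Small RNA was sequenced from RAW 264.7 cells, a male mouse macrophage-like cell line widely used as a stand-in for primary macrophages. The 3 control libraries came from cells labelled as untreated, and the 3 oxLDL libraries from cells labelled as treated with oxidized LDL (ox-LDL) for 48 h. Oxidized LDL is modified low-density lipoprotein that macrophages of the artery wall take up through scavenger receptors as they turn into foam cells. The table names the control columns as 0 h, so the effect of the time in culture and that of oxLDL cannot be told apart in any comparison here. The labels give neither a dose nor a native LDL control, and nothing in them says that the 3 libraries of a group came from separate cultures, so p-values measure the spread between these libraries, which may be technical.

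Library totals ran from 5502826 to 7373185 reads, so that 1 read stood for 0.136 to 0.182 CPM, the count scaled to a library of standard size. All 6 macrophage and myeloid marker miRNAs were listed, with a summed level of 169989 to 201538 CPM, of which miR-21a-5p made up 95501 to 113639 CPM. miR-142a-5p had 58996 to 78127 CPM, miR-142a-3p 5079 to 6535 CPM and miR-146a-5p 4308 to 14624 CPM. The levels of miR-155-5p (163 to 373 CPM) and miR-223-3p (59.6 to 149 CPM) were far lower. The 12 markers of other cell types summed to 2153 to 2850 CPM in the control libraries and 1675 to 2266 CPM in the oxLDL libraries. Fibroblast-associated miR-199a-3p gave most of that sum, and none of the 12 was at 0 in any library. Control 2 had the highest sum of the 6 libraries, with 90.8 CPM of liver-associated miR-122-5p against 1.83 to 18.4 CPM in the other 5. The part of this in the results was not tested, and calls that end without control 2 are given beside the entries they concern.

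A mirtron is a microRNA hairpin whose ends are made by splicing. The spliced intron is debranched and folds into a hairpin that Dicer can cut, so the nuclear enzyme Drosha, which frees the hairpins of canonical microRNAs, is not needed. In tailed mirtrons only one end of the hairpin is a splice site, and the rest of the intron has to be trimmed away. Mirtrons are usually sparse in small RNA libraries, and few have been given a function.

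Names in this range were mostly added as intron-derived mirtrons. The position of these hairpins in their genes was thus largely set by the choice of range, and it separated them from most others. RefSeq held 180 hairpins in the number range (build GRCm38.p6), and 167 of them (92.8%) had their last base exactly on the last base of an annotated intron, against 19 of 414 hairpins (4.59%) that lie in introns outside the range. With a window of 5 bases, 12 spanned the whole intron and 156 touched only its 3′ end, leaving an upstream tail of 7 to 36205 bases with a median of 490. A further 4 began at the first base of the intron, and 8 met neither end within the window. Of the 8 that ran past the intron's end, 7 did so by 6 to 7 bases. The 180 hairpins lay in 177 host genes, and 26 of them also fell in an exon of another transcript. None overlapped an annotated small RNA gene.

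**Figure D1:**
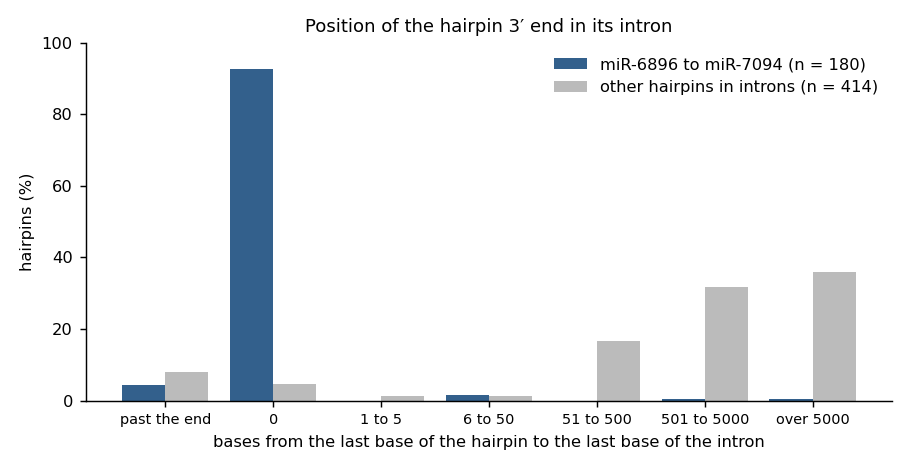
Share of hairpins (vertical axis, percent) by the number of bases between the last base of the hairpin and the last base of its intron (horizontal axis, classes). The bar at 0 holds 92.8% of the 180 miR-6896 to miR-7094 hairpins and 4.59% of the 414 other hairpins in introns, most of which lie more than 500 bases away.

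The sequences carried the same mark, since introns end in AG. The last 2 bases were AG in 167 of the 180 hairpins (92.8%), against 71 of 825 other hairpins (8.61%). Among mature 3p arms, 138 of 177 ended in AG (78.0%, against 10.9% of 532 others) and 120 ended in CAG (67.8%, against 5.45%). Median hairpin length was 66 bases, against 82 for the others. The 4 hairpins below are printed from 5′ to 3′ because they show the 3 arrangements met in the results, with the bases that are the first or last 2 of the intron in capitals. Mir7091 is a complete intron, Mir7033 and Mir6992 are the 3′ parts of longer introns, and Mir6936 is the 5′ part of one.
Mir7091: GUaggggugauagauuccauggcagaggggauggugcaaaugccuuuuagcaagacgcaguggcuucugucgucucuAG
Mir7033: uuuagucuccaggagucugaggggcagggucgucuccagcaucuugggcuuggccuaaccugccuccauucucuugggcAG
Mir6992: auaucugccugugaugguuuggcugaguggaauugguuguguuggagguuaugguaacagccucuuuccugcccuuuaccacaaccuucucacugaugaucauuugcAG
Mir6936: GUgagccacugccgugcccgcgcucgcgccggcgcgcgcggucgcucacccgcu

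Mature sequences from RefSeq could be matched to 210 of the 237 entries. The 10 below are those the results turn on, either because the level differed between groups or because they were among the most read. Capitals mark the seed, bases 2 to 8, which pairs with target messages.
miR-7091-5p: gUAGGGGUgauagauuccauggc
miR-7033-5p: uCUCCAGGagucugaggggcagg
miR-6992-5p: uGCCUGUGaugguuuggcugagu
miR-7003-5p: uGUGGGGAgaagcugcggcag
miR-6936-3p: cGGCGCGCgcggucgcucacc
miR-6977-3p: aAGGCGUUgccugacccugacc
miR-7062-5p: uGGAGGCCagcuuguggagugucu
miR-6960-5p: cAGGAUGAgaagaguuuggcug
miR-7059-5p: aCCGGGGAcugcggcuuucagu
miR-7057-5p: cAGGAGAGgacucaaguu

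No seed was shared among these 10. The 210 entries carried 198 distinct seeds, 33 entries shared theirs with another listed entry, and 15 shared it with one outside the range. miR-7057-5p, at 18 bases the shortest mature sequence of the range, had the seed of miR-7012-5p, which had 11 reads, and miR-7003-5p had the seed of miR-491-5p. No entry matched another listed miRNA over at least 16 bases with up to 2 mismatches.

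Most entries were close to the limit of detection. Summed over the 6 libraries, the median entry had 6 reads, 48 entries had a single read and 87 had 3 or fewer, while 86 had at least 10. Reads were found in every library for 66 entries (27.8%), against 40.0% of the 95 entries numbered above the range, 47.0% of the 66 numbered from 5000 up to the range and 68.5% of the 711 others. Being listed was no rarer than elsewhere in RefSeq, with 210 of 355 mature sequences of the range in the table (59.2%) against 747 of 1324 others (56.4%). Reads were concentrated in few entries: the first held 10.4%, the first 5 held 32.5% and the first 20 held 59.6%.

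The number of entries with at least 1 read was 152, 143 and 152 in control 1 to 3 and 127, 143 and 129 in oxLDL 1 to 3. The control mean was 149.0 ± 5.20 (SD, n = 3) and the ratio of the oxLDL to the control mean was 0.893, with an SD of 8.72 in the oxLDL libraries. The groups met at 143. At the total of the smallest library the expected numbers were 137.8, 129.9 and 142.3 in the control libraries and 127.0, 132.6 and 121.9 in the oxLDL libraries. Entries with at least 3 reads numbered 74, 69 and 71 in the control libraries and 55, 56 and 55 in the oxLDL libraries, so these groups did not overlap. The totals of the oxLDL libraries were lower on the whole, and the 3-read count was not brought to one total. Control 3 and oxLDL 2 had totals of 6570095 and 6572485 reads, with 71 and 56 entries at 3 reads or more. The separation was not particular to the range. Above it the control libraries had 42 to 45 such entries and the oxLDL libraries 29 to 36, with means of 43.3 and 32.3. The means were 34.7 and 33.7 for numbers from 5000 up to the range, where the groups overlapped. They were 507 and 478 for the others, where the groups stood apart (500 to 510 against 473 to 481). The part of depth was not tested.

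Pooled, the entries gave 964, 929 and 824 reads in the control libraries and 666, 831 and 747 in the oxLDL libraries. As a share of each library this was 130.7, 130.4 and 125.4 CPM in control 1 to 3 and 121.0, 126.4 and 118.4 CPM in oxLDL 1 to 3. The means of 128.9 ± 2.98 and 121.9 ± 4.11 CPM (SD, n = 3) were 1.06-fold apart and the groups overlapped, because oxLDL 2 lay above control 3. After TMM scaling, which estimates the scale between libraries from the bulk of the entries, the same ratio became 1.05-fold higher in oxLDL, so the pooled level has no direction that holds under both scalings.

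The 218 entries too low for the test of change held 41.7% of the reads and pooled to 53.3 to 57.2 CPM in the control libraries and 44.4 to 52.3 CPM in the oxLDL libraries, a ratio of oxLDL to control of 0.890. After TMM scaling that ratio was 0.988 and the groups overlapped, so the difference depends on the scaling. Without the single most read entry, miR-7091-5p, the ratio of all the others was 0.887 on library totals and 0.985 after TMM scaling. Entries numbered above the range came to less with oxLDL under both scalings, with ratios of 0.732 and 0.813 and separate groups, at 97.2 ± 6.93 CPM against 132.8 ± 14.0 CPM on library totals. In a bulk library, fewer cells carrying an RNA and less of it per cell cannot be told apart.

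**Figure D2:**
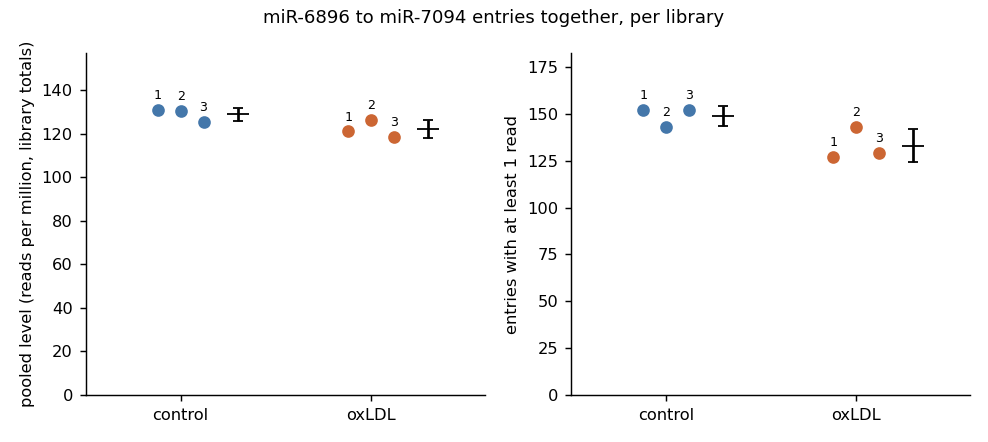
Left, pooled level of the 237 entries per library in CPM of the library total; right, number of entries with at least 1 read. Points are libraries with their replicate number, bars are the mean ± SD of 3 libraries; pooled levels lie between 118.4 and 130.7 CPM in all 6.

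Change between the groups was tested with edgeR's quasi-likelihood test over the whole table. Only 19 of the 237 entries (8.02%) passed its filter on low counts, which asks for about 1.52 CPM in 3 libraries, against 42.8% of all rows. Of those 19, 8 reached the limit in both groups, 7 through the control libraries alone and 4 through the oxLDL libraries alone. Of the 19, 3 were called higher and 4 lower at an adjusted p under 0.05, beside 45.7% of the 475 rows tested that were called (21.7% higher and 24% lower). Of the 7, only miR-7091-5p passed the filter in both groups, and the other 6 passed only through the group in which they were higher, so the count of calls among those that passed is a description and nothing more. Separate groups were seen for 9 of the 19, beside 59.4% of all rows tested. The median log2 fold change was 0.03 for the 19 and -0.13 for all rows tested. With library totals in place of TMM factors the median of all rows was -0.28 and the calls were 82 higher and 158 lower, instead of 103 and 114, while those of the range were 3 higher and 5 lower and the median of the 19 turned to -0.13.

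**Figure D3:**
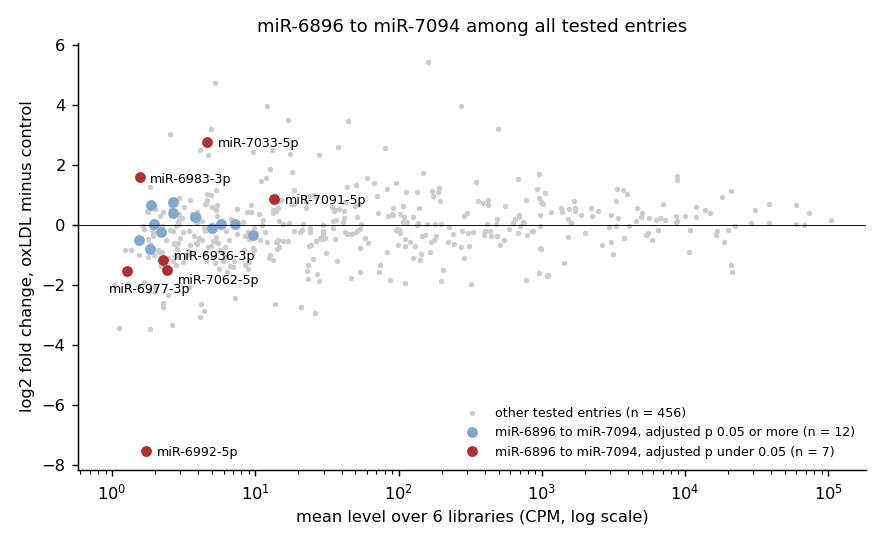
Fitted log2 fold change of oxLDL against control (vertical axis) by mean CPM over 6 libraries (horizontal axis, log scale) for the 475 rows tested. The 19 entries of the range sit at the low end, from 1.27 to 13.5 CPM; the point of miR-6992-5p, at 0 in every oxLDL library, depends on the prior count and is no measured fold.

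The 3 entries called higher were miR-7091-5p, miR-7033-5p and miR-6983-3p. miR-7091-5p, the most read entry of the range, had 72, 75 and 64 reads in control 1 to 3 and 85, 111 and 109 in oxLDL 1 to 3. Every oxLDL library lay above every control library. Its level rose from 9.51 ± 0.668 to 17.5 ± 1.41 CPM after TMM scaling, 1.84-fold (log2 0.88, SE 0.168, adjusted p 0.00389). Its hairpin is the entire 79-base intron of Dnase1l1, a gene of the deoxyribonuclease I family, at chrX:74274027-74274105 on the minus strand, and the mature 5p arm starts at the first base of that intron.

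miR-7033-5p showed the largest rise of the tested entries of the range. It had 13, 3 and 10 reads in control 1 to 3 and 39, 44 and 58 reads in oxLDL 1 to 3, so the lowest oxLDL library had 3 times the reads of the highest control library. Its level went from 1.18 ± 0.709 to 8.08 ± 1.45 CPM, a 6.79-fold rise (log2 2.76, SE 0.408, adjusted p 0.00122). The hairpin takes the last 81 bases of a 109-base intron of Pom121, which encodes a membrane protein of the nuclear pore, at chr5:135383730-135383810 on the minus strand.

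miR-6983-3p had 10, 2 and 5 reads in the control libraries and 9, 14 and 18 in the oxLDL libraries. The CPM groups did not overlap, but raw reads of oxLDL 1 fell below those of control 1. The level rose from 0.772 ± 0.557 to 2.33 ± 0.675 CPM (log2 1.59, SE 0.513, adjusted p 0.0357), and the call was lost in 6 of 12 other settings. Among these, the adjusted p was 0.0869 without control 2, 0.0900 without control 3, 0.0891 without oxLDL 2 and 0.113 without oxLDL 3. The other arm of the same hairpin, miR-6983-5p, had 42, 49 and 35 reads in the control libraries and 27, 37 and 37 in the oxLDL libraries and was not called (log2 0.03, adjusted p 0.933), and its value turned negative with library totals.

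Of the 4 entries called lower, miR-6992-5p was the most extreme. It had 26, 26 and 25 reads in control 1 to 3 and 0 in each of the 3 oxLDL libraries. A count of 0 allows up to 3 reads over the oxLDL group, or 0.163 CPM, so the level was at least 22.4-fold lower than the 3.66 CPM of the pooled control libraries (adjusted p 0.000420). No other row of the whole table had 30 or more control reads and none with oxLDL. The 3p arm of the hairpin had 1 read in control 2 and 1 in oxLDL 1, which is too few to compare. The hairpin starts 46 bases into an intron of Stx5a, which encodes a Golgi SNARE protein, and runs to its end at chr19:8742971-8743079 on the plus strand, where another Stx5a transcript has an exon.

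miR-6936-3p had 17, 30 and 23 reads in the control libraries and 7, 8 and 9 in the oxLDL libraries. The groups stood apart, with the oxLDL libraries close together. The level fell from 3.15 ± 0.823 to 1.38 ± 0.118 CPM (log2 -1.18, SE 0.311, adjusted p 0.0163). The hairpin is the first 54 bases of a 66-base intron of Sirt7, which encodes a nucleolar NAD-dependent deacylase, at chr11:120624823-120624876 on the minus strand. The call was lost in 5 of 12 other settings, among them without control 2 (adjusted p 0.0544), oxLDL 1 (0.0501) or oxLDL 2 (0.0579).

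miR-6977-3p had 19, 11 and 12 reads in the control libraries and 4, 4 and 3 in the oxLDL libraries, again without overlap. The level fell 2.94-fold, from 1.90 ± 0.614 to 0.635 ± 0.122 CPM (log2 -1.56, SE 0.408, adjusted p 0.0161), and the call was lost in 5 of 12 other settings, among them without control 1 (adjusted p 0.0592), oxLDL 2 (0.0568) or oxLDL 3 (0.0646). It comes from the start of a 79-base intron of Ptprs, a receptor-type tyrosine phosphatase gene, at chr17:56418846-56418909 on the minus strand.

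miR-7062-5p had 39, 25 and 15 reads in the control libraries and 3, 11 and 8 in the oxLDL libraries. All control libraries were above all oxLDL libraries, and control 1 was by far the highest. The level fell from 3.56 ± 1.66 to 1.24 ± 0.631 CPM (log2 -1.49, SE 0.489, adjusted p 0.0378), but the call was lost in 8 of 12 other settings. These took in the fit without control 1 (log2 -1.09, adjusted p 0.130), and those without control 2, oxLDL 1, oxLDL 2 or oxLDL 3 (0.0529 to 0.0852). Its host is Adam8, a membrane metalloprotease gene of leukocytes, where the hairpin ends an 84-base intron at chr7:139986809-139986874 on the minus strand.

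The calls of miR-7091-5p, miR-7033-5p and miR-6992-5p held in every setting in which they were tested, with adjusted p of at most 0.0215, 0.00655 and 0.00371.

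**Figure D4:**
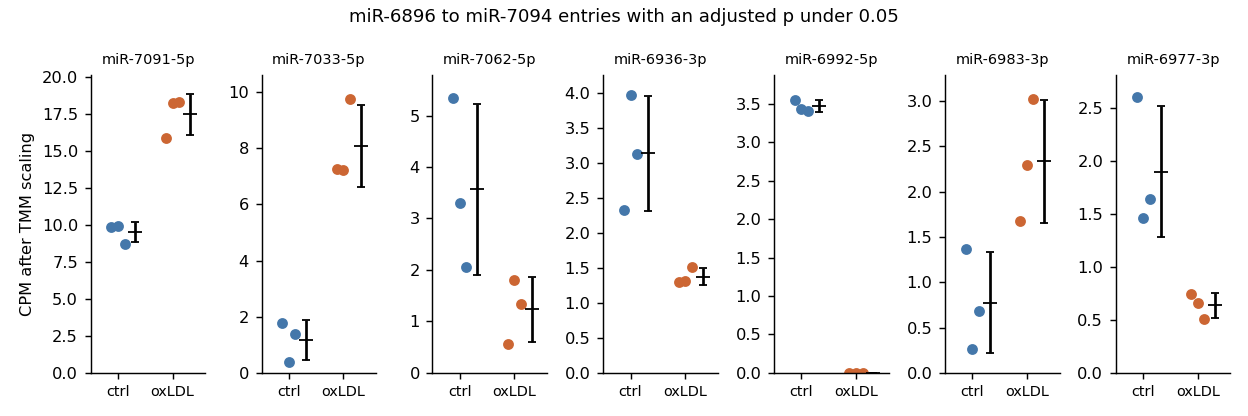
CPM after TMM scaling in each library for the 7 entries called, one panel each with its own vertical axis from 0. Points are libraries and bars are the mean ± SD of 3; the groups do not overlap in any panel, and miR-6992-5p is at 0 in all 3 oxLDL libraries.

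The other 12 tested entries were not called. miR-6960-5p, the second most read entry, from an intron of the spindle gene Troap (chr15:99080805-99080865, plus strand), had 86, 89 and 64 reads in the control libraries and 30, 67 and 52 in the oxLDL libraries (log2 -0.34, adjusted p 0.326). The groups overlapped in reads and after TMM scaling, at 10.8 ± 1.75 and 8.44 ± 2.72 CPM. miR-7059-5p, from Cln3, a lysosomal membrane protein gene, had 51, 62 and 45 reads in the control libraries and 38, 41 and 47 in the oxLDL libraries (log2 0.03, adjusted p 0.933). miR-7057-5p, from the kinase gene Lrrk1, had 40, 40 and 34 reads and 22, 30 and 31 (log2 -0.11, adjusted p 0.675).

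A pair of entries had separate groups in CPM yet missed the threshold. miR-7063-5p, from Ap2a2, a clathrin adaptor gene, had 13, 18 and 13 reads in the control libraries and 22, 19 and 17 in the oxLDL libraries (log2 0.75, SE 0.275, adjusted p 0.0562). miR-6951-5p had 18, 21 and 13 reads in the control libraries and 9, 8 and 6 in the oxLDL libraries (log2 -0.81, SE 0.332, adjusted p 0.0759). The other 6 overlapped between the groups. Their log2 changes ran from -0.51 for miR-6948-3p to 0.66 for miR-7042-5p, passing through miR-7068-3p (-0.25), miR-6911-3p (0.04), miR-6933-5p (0.26) and miR-6994-5p (0.38), with adjusted p from 0.167 to 0.934.

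Entries listed at 0 throughout one group were mostly of very few reads. Of the 1107 rows with any read, 11.4% were at 0 in all oxLDL libraries, and 51 of these rows were in the range. In all control libraries 97 rows were at 0 (8.76%), of which 29 were in the range. Reads in all 3 control libraries and in no oxLDL library were found for 7 entries of the range, beside 13 of all 1107 rows (1.17%), and the reverse for 1, beside 2 of all rows (0.181%). After miR-6992-5p, the one with the most reads was miR-7003-5p, from an intron of Mybl2, which encodes a cell cycle transcription factor, at chr2:163068090-163068155 on the plus strand. It had 3, 6 and 6 reads in the control libraries and 0 in the oxLDL libraries, at least 4.36-fold lower by the same floor of 3 reads over the group, and was too low for the test. No entry found only in the oxLDL libraries had more than 6 reads.

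Arm use leaned to the 5p side. Of the entries' reads, 3823 (77.1%) came from 5p arms. Among rows named with an arm, this share was 25.3% above the range and 50.6% for numbers from 5000 up to it. It was 64.8% for the others, which also leaned to the 5p side. The 5p share was 71.5%, 81.4% and 72.9% in control 1 to 3 and 80.0%, 78.3% and 79.4% in oxLDL 1 to 3, with means of 75.3% ± 5.35 and 79.3% ± 0.853 (SD, n = 3). The groups overlapped, since control 2 was the highest of all. Among 80 hairpins with at least 10 reads, 58 had more 5p reads (72.5%) and 22 more 3p reads. More 5p reads were found for 10 of 33 hairpins numbered above the range (30.3%) and 5 of 12 numbered from 5000 up to it (41.7%). The same held for 162 of 312 hairpins numbered below 5000 or named otherwise (51.9%).

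Where a single end of the hairpin lay at an intron end within the window, the arm with more reads mostly went with which end it was. Where only the 3′ end of the hairpin lay at the end of the intron, 49 of 61 hairpins had more 5p reads, and 84.3% of their reads were 5p. The 3 hairpins of which only the 5′ end lay at the start of the intron, Mir6927, Mir6936 and Mir6977, all had more 3p reads, and 3.11% of their reads were 5p. In both arrangements the arm with more reads was mostly the one away from the splice site. Of the 5 hairpins that met neither end within the window, 2 had more 5p reads and 3 more 3p reads. Of the reads of these 5, 40.9% were 5p. Among these, Mir6904, Mir6914 and Mir6925 ran past the intron's end by 6 to 7 bases, just outside the window. Mir6904 and Mir6914 had more 3p reads and Mir6925 more 5p reads, so the classes depend on the window. Of the 3 complete introns, miR-7091 was 95.2% 5p, while miR-7068 and miR-7082 had more 3p reads. These counts describe which arm was read, and adaptor ligation, which favours some RNA ends, can also differ between arms.

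**Figure D5:**
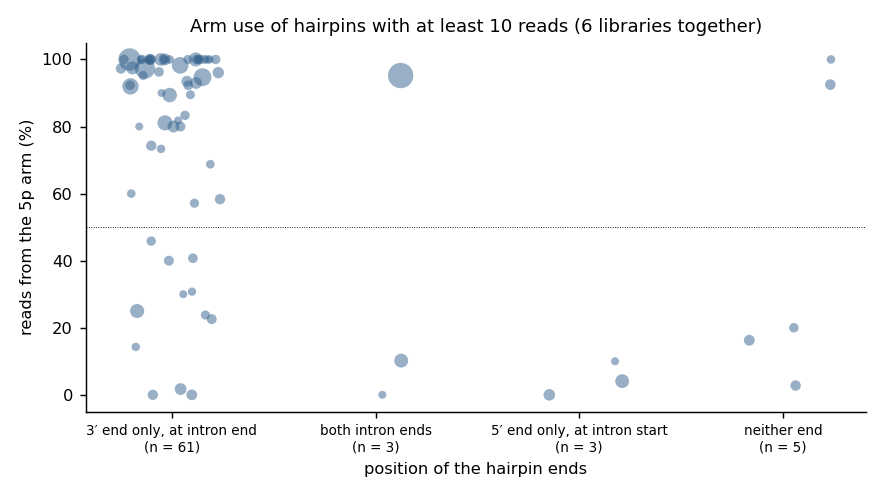
Share of reads from the 5p arm (vertical axis, percent) by the position of the hairpin ends (horizontal axis) for the 72 hairpins with at least 10 reads and a RefSeq hairpin. Each circle is a hairpin, larger with more reads, spread sideways for legibility. In the first column 49 of 61 lie above the line at 50%, and all 3 in the third column lie below it. The columns use a window of 5 bases. Mir6904, Mir6914 and Mir6925 in the last column ran 6 to 7 bases past the intron's end.

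A shift of arm use with oxLDL was tested by a limma fit to the log2 ratio of 5p to 3p reads, each with 0.5 added. Of 252 hairpins of the table with both arms and at least 30 reads, 29 were in the range, and 4 of those were called, beside 14.3% of all tested. For Mir7033 the 5p reads given above stood against 1, 0 and 2 reads of the 3p arm in the control libraries and none in the oxLDL libraries. Its log2 ratio went from 2.68 to 6.55 (change 3.87, SE 0.363, adjusted p 0.00491). With so few 3p reads the value in the oxLDL libraries depends on the 0.5 added, and the change mostly restates the rise of the 5p reads. For Mir6992 the ratio went from 5.18 to -0.53 (change -5.71, adjusted p 0.00892), which likewise mostly restates the lower 5p reads.

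Mir7029, in the gene of the translational regulator Gcn1l1, had 1, 4 and 2 reads of the 5p arm in the control libraries and none in the oxLDL libraries. Its 3p arm had 5, 3 and 3 reads in the control libraries and 8, 10 and 7 in the oxLDL libraries, so the arms moved in opposite directions. The log2 ratio went from -0.67 to -4.13 (change -3.46, SE 0.582, adjusted p 0.0230). Mir6905, in the Mediator gene Med23, had 4, 7 and 5 reads of the 5p arm against 2, 4 and 2, and 0, 0 and 1 of the 3p arm against 2, 2 and 1 (change -2.46, SE 0.570, adjusted p 0.0392). The 2 hairpins rest on 43 and 30 reads. The call of Mir7029 ended without control 2, control 3 or any 1 of the oxLDL libraries (adjusted p of 0.0521 to 0.0733), and that of Mir6905 when hairpins of at least 10 reads were fitted (0.0578). With exactly 30 reads, Mir6905 fell under the limit of the fit once any 1 library was left out, so its call was not tested there.

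The other 25 hairpins were not called. Mir6983, whose 3p arm alone was called higher, had a change of -1.70 in its log2 ratio (SE 0.604, adjusted p 0.123), and Mir7091 had a change of 0.09 (SE 0.655, adjusted p 0.956). Its 3p arm had 4, 1 and 7 reads in the control libraries and 3, 5 and 6 in the oxLDL libraries, so its 5p share was 94.6% and 95.6%.

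Mirtrons named outside the range gave a point of comparison. The 8 entries of miR-702, miR-877, miR-1224, miR-1981 and miR-1982 held 9885 reads, more than the whole range, and 6 of the 8 were tested. edgeR called 0 of them (median log2 -0.33), with 1 at an unadjusted p under 0.05, and DESeq2 also called 0. Of all 475 rows tested, edgeR called 45.7%, the share to set beside each list here, and DESeq2 42.1%. miR-1981-5p had 106.7 ± 20.3 CPM without and 94.4 ± 8.95 CPM with oxLDL (adjusted p 0.452), and miR-877-5p 104.9 ± 11.04 and 94.1 ± 22.6 CPM (adjusted p 0.542). Of 39 entries outside the range with a hairpin at an intron end, 13 were tested and 1 was called, miR-5121, which was higher (7.30 ± 3.28 to 313 ± 40.9 CPM, adjusted p 5.32e-05). The lists overlap, since miR-1981-5p and miR-877-5p are in this list too and miR-5121 is also numbered from 5000 up to the range. Of the 95 entries numbered above the range, 17 were tested, with 1 called higher and 5 lower and a median log2 change of -0.85. Of the 66 numbered from 5000 up to the range, 22 were tested, with 6 called higher and 5 lower and a median of 0.09, and miR-5099 alone (4320 ± 853 to 13312 ± 419 CPM, adjusted p 0.000137) made up most of their reads.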

How the data were processed

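Per the labels' protocols, gel-purified small RNA was given adaptors at both ends, turned into cDNA, amplified and read on an Illumina machine. What the authors deposited is a single table with 1 row per mature mouse miRNA and an estimated count for each library, without any scaling between libraries. Fractional values, 117 of 6654, were met in 40 rows (tolerance 1e-06), none of them in the range described. The submitters' processing notes name the build GRCm38.p5. The aligner, the counter, the division of reads between copies and the miRNA database version are not given in the sources used here.

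Estimated counts were first rounded to the nearest whole number. Change was tested by the quasi-likelihood F-test of edgeR 4.0.16 under R 4.3.3, fitted to the whole table, with TMM factors, edgeR's filter by group and Benjamini-Hochberg adjustment at 0.05. Arm ratios were tested with limma 3.58.1 over all hairpins with both arms and at least 30 reads, with a pseudocount of 0.5. Both scripts were tested on simulated data. The simulated arm shifts were placed only in hairpins well read on both arms. That check thus does not cover the arm calls of the range, which rest on few reads of at least 1 arm. Pooled levels, shares and detection were described without a test. Floors of 3 reads cover counting error only, since reads made by PCR, with no molecular identifiers, do not stand for separate molecules. No 2 libraries were alike within sampling noise (chi-square of at least 111 for each degree of freedom).

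Hairpins and mature sequences are from RefSeq (GRCm38.p6) and introns from GENCODE M21, on the same chromosomes; a hairpin end within 5 bases of an intron's end was taken to lie at it. Both differ in patch release from the authors' build.

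The members and lists were chosen with earlier results of these data known. Named entries are every one of the range that passed the filter, every one called, the 10 with the most reads, those of hairpins in the arm test, and up to 3 of each comparison list by mean CPM. miR-7003-5p, miR-7012-5p, miR-491-5p, Mir6904, Mir6925, Mir6927 and Mir7082, and the entries of the closing section, were named after their values were seen. Alternatives were RLE factors, library totals, other filters and thresholds, DESeq2 1.42.0, a replicate block, leaving out each library and, chosen after seeing the data, centring on the median and pooled levels of fewer entries after TMM scaling.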

Additional observations from a re-analysis of the deposited data

How the results depend on the processing

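Of the range, 7 entries were called as reported, 13 (7 higher, 6 lower) with no filter, where 22.8% of 1107 rows were called, 1 (of 1 tested) with a mean of at least 10 CPM (55.9% of all rows), 3 with DESeq2 (42.1%), 3 at an adjusted p of 0.01 (28.8%) and 3 to 6 without 1 library at a time (32.5% to 43.1%). RLE factors and library totals gave 8 each (46.3% and 50.5%), and centring on the median gave 7 (46.9%), with 4 higher. The ratio of pooled levels was 0.946, against 1.05 after TMM scaling, 0.887 without the most read entry and 0.890 for entries under the filter (0.985 and 0.988 for these after TMM scaling). The ratio of entries detected was 0.893, against 0.776 at 3 reads and 0.746 at 10 reads. For arm use, 4 of 29 hairpins of the range were called (14.3% of all hairpins tested), against 1 of 9 with at least 100 reads (17.8%). With at least 10 reads, 3 of 53 were called (4.30%). Without 1 library at a time, 2 to 3 of 22 to 25 were called, and 1.64% to 6.22% of all hairpins tested. Log2 changes near 0 turned negative with library totals for miR-7059-5p (-0.13), miR-6983-5p (-0.12) and miR-6911-3p (-0.10), and miR-7057-5p turned to 0.018 with centring on the median. Without 1 library at a time they ran from -0.10 to 0.12 for miR-7059-5p, -0.11 to 0.11 for miR-6983-5p and -0.14 to 0.36 for miR-6911-3p. The causes were not tested, beyond the fewer rows or libraries that each setting holds.

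The replicate numbers did not pair the samples: deviations of same-numbered libraries correlated at -0.30, -0.23 and -0.12 over 475 rows. With the replicate block, 3 entries of the range were called, beside 37.5% of all rows, and limma called 0 of its 29 hairpins, with 8 at an unadjusted p under 0.05, and 1 of 252 overall. The adjusted p was 0.0688 for Mir7033 and for Mir6992, 0.0850 for Mir7029 and 0.1002 for Mir6905.

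One read is worth at least 0.136 CPM here, so levels under the filter are counts of a few reads, and absence from a library was not detectable below 3 reads.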

Other observations

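A total of 3 host genes held a pair of hairpins of the range, namely Ankrd52, Cmip and Srebf1, the last of which encodes a transcription factor of cholesterol and fatty acid synthesis. From the Srebf1 introns, miR-6922-5p had 2, 7 and 3 reads in control 1 to 3 and 5, 3 and 1 in oxLDL 1 to 3, and miR-6922-3p had 2, 2 and 2 reads in the control libraries and 5, 4 and 0 in the oxLDL libraries. The groups overlapped, and the log2 arm ratio of Mir6922 changed by -0.28 (SE 0.653, limma adjusted p 0.805). miR-6921-5p, the other Srebf1 product, had 2 reads, both in oxLDL 1. It carries the seed GAGGGGC of miR-423-5p, which had 59749 reads. The Ankrd52 product miR-6914-3p had 9, 1 and 8 reads in the control libraries and 5, 6 and 6 in the oxLDL libraries, with control 2 apart from the others.

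Without the filter on low counts, edgeR's quasi-likelihood test called 13 of the 237 entries of the range, beside 22.8% of 1107 rows. Of the 13, 6 had not passed the filter, 4 called higher and 2 lower. miR-7087-5p had 1, 0 and 0 reads in the control libraries and 3, 2 and 7 in the oxLDL libraries. miR-6961-5p had 0, 0 and 1 against 3, 5 and 2, and miR-7086-5p had 2, 0 and 1 against 3, 7 and 4. miR-6916-5p had 2, 1 and 3 reads against 4, 10 and 4. Of those called lower, miR-6908-5p had 5, 1 and 3 reads in the control libraries and none with oxLDL, and the other was miR-7003-5p. With so few reads these calls rest on the spread that edgeR shares between entries.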
